A study of Homo sapiens with 6 samples.

Results

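Recognition of the 3′ end of introns was examined through 5 genes, U2AF1, U2AF2, U2AF1L4, SF1 and PUF60, in K562 cells with and without knockdown of ZRSR2. Every intron in the tables whose interval lies inside 1 of these genes, on the strand of that gene, was taken, which gave 57 of 241593 listed introns. U2AF1 held 9 of them, U2AF2 held 11, U2AF1L4 held 9, and SF1 and PUF60 held 14 each. K562 is an established human leukaemia line with erythroid and megakaryocytic features. Grown in RPMI-1640 with FBS, the cells were transduced with a control shRNA (Con_sh) or either of 2 shRNAs against ZRSR2 (ZRSR2_sh1 and ZRSR2_sh2, written sh1 and sh2 here), and each group held 2 libraries, labelled as experiment 1 and experiment 2. All libraries come from the same line, polyA RNA was sequenced, and the labels do not state that libraries come from separate cultures. The p-values then measure only the spread between these libraries, which may be technical. ZRSR2, the target, is a relative of U2AF1 needed for splicing of U12-type introns, which the minor spliceosome removes.

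U2AF and SF1 prepare most introns for splicing. SF1 binds the branch point sequence, U2AF2 binds the polypyrimidine tract just downstream of it, and U2AF1, the smaller partner of U2AF2, contacts the AG at the end of the intron. SF1 then leaves and the U2 particle, with SF3B1 in it, takes over the branch point. U2AF1L4 is a paralogue of U2AF1, and PUF60 is a protein related to U2AF2 that also binds pyrimidine-rich stretches. U2AF1 and ZRSR2 are both recurrently mutated in myelodysplastic syndromes.

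U2AF1 cannot be read alone in these tables, because the GRCh38.p14 annotation lists a near-identical copy on chromosome 21, LOC102724594. The U2AF1 gene lies at chr21:43092956-43107578 and the copy at chr21:6484623-6499248, both on the minus strand (RefSeq, GRCh38.p14). To show how alike they are, 80 bases around each annotated start are given, 5′ to 3′ on the strand of the gene, at chr21:43107541-43107620 for U2AF1 and at chr21:6499219-6499298 for the copy. The capital marks the only base that differs, A62C counted from 1 at the 5′ end of the printed stretch. For the copy, the last 30 bases lie inside the gene interval given above.
U2AF1: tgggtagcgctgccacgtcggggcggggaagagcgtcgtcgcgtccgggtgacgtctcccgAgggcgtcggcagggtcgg
LOC102724594: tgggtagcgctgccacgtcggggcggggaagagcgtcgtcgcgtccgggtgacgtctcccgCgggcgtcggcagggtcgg
Over the whole 300-base window in the RefSeq table, 299 bases were identical. Each of the 9 introns of U2AF1 had a partner in the copy, 6 of them of the same length, and the spliced counts of the partners differed by at most 1.80% in any library. Boundary reads, which lie partly inside introns, came to between 1.002 and 1.69 times as many in the copy, with 3 of the 9 ratios above 1.1. The spliced counts of U2AF1 are therefore nearly repeated at the copy, and which copy a read came from cannot be told apart. Values given for U2AF1 are the counts at its own position, without adding those at the copy. They may hold reads that came from either copy. Whether the copy is a gene with transcripts of its own cannot be told from these counts.

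No other annotated gene overlapped an intron of any of the 5 genes. U2AF2 lies at chr19:55655035-55674716 on the plus strand, and U2AF1L4 at chr19:35742464-35745418, SF1 at chr11:64764606-64778542 and PUF60 at chr8:143816344-143829315 on the minus strand. Introns are numbered here in the direction of transcription of each gene, over the listed introns only, so the numbers are not those of an annotation.

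Spliced reads summed over all introns to between 82986327 and 101120454 per library, and boundary reads to between 4387311 and 5199693. ZRSR2 was below both controls in every knockdown library. Its spliced reads, summed over introns that do not overlap, came to 27.5 and 23.2 depth-scaled counts (CPM) in the Con_sh libraries, 10.6 and 10.6 with sh1 and 10.1 and 12.7 with sh2, a log2 change of -1.20 (SE 0.18) over both shRNAs. edgeR's quasi-likelihood test gave an unadjusted p of 0.00029 and an adjusted p of 0.515, and DESeq2 gave an adjusted p of 1.1e-06. All 7 erythroid markers used for K562 (GATA1, TAL1, KLF1, HBE1, HBZ, TFRC and EPOR) were above 1 CPM on average, and of the markers of other cells 1 of 4 myeloid, 2 of 4 lymphoid and 2 of 4 stromal or epithelial ones were. Their sums ran from 2.47 to 4.91, 8.30 to 18.2 and 98.1 to 138 CPM, and no marker was at 0 in all libraries. The sum of the erythroid markers was 1985 and 2360 CPM with Con_sh, 3378 and 1908 with sh1 and 8955 and 2832 with sh2, so that the sh2 library of experiment 1 stood apart. Embryonic globin HBE1 made up 4846 CPM of that library, against 188 to 1440 in the other 5. Some of the changes below are also given without it, and ranges over fits without 1 library are given for others.

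Expression of the 5 genes did not pass a test in any contrast. Levels are compared here as CPM per summed intron, which puts genes with many and few introns on 1 scale. U2AF1, not separable from its copy, was the highest, at a mean of 98.6, followed by U2AF2 at 54.8, SF1 at 40.9, PUF60 at 26.7 and U2AF1L4 at 2.88. The ranges over the 6 libraries did not overlap between any neighbours in this order (81.2 to 109 for U2AF1, 45.7 to 64.3 for U2AF2, 36.5 to 42.9 for SF1, 25.1 to 28.0 for PUF60 and 2.54 to 3.23 for U2AF1L4). The target ZRSR2 stood at 2.75 and 2.32 in the Con_sh libraries on the same scale, next to U2AF1L4, the paralogue of U2AF1.

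**Figure D1:**
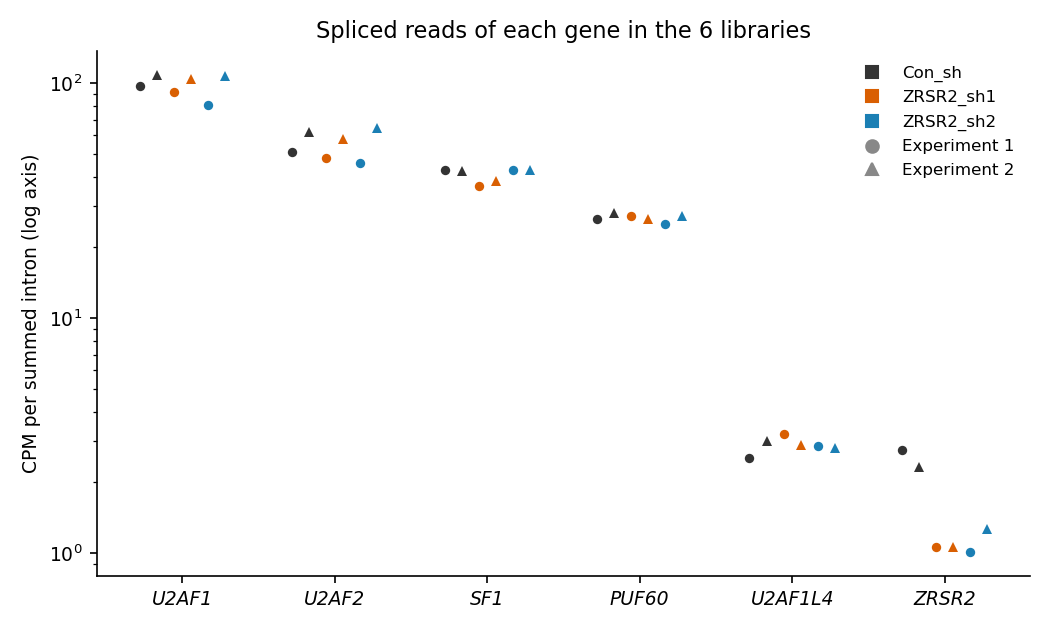
Spliced reads of the 5 genes and of ZRSR2 in CPM per summed intron (log axis), 1 point per library, with colour for the shRNA and shape for the experiment. The 4 knockdown libraries of ZRSR2 sit below both controls, while for each of the other genes the knockdown and control points overlap, and the triangles of U2AF1 and U2AF2 (experiment 2) lie above the circles.

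SF1, the branch point protein, measured 42.8 and 42.4 CPM per intron with Con_sh, 36.5 and 38.4 with sh1 and 42.9 and 42.6 with sh2. Both sh1 libraries were the lowest of the 6, and the difference of sh1 from the control was a log2 of -0.19 (SE 0.13, edgeR adjusted p = 0.79). U2AF2, the tract-binding subunit, measured 51.2 and 61.9 with Con_sh, 48.0 and 57.7 with sh1 and 45.7 and 64.3 with sh2. Here the lower value of each pair was that of experiment 1, and the groups overlapped. U2AF1 was ordered in the same way, with 97.7 and 109 with Con_sh, 91.8 and 104 with sh1 and 81.2 and 108 with sh2. PUF60 measured 26.5 and 28.0 with Con_sh, 27.2 and 26.3 with sh1 and 25.1 and 27.3 with sh2. U2AF1L4 was at 2.54 and 3.001 with Con_sh, 3.23 and 2.89 with sh1 and 2.84 and 2.79 with sh2, again with overlapping groups. In such bulk samples, fewer cells with a transcript and less of it per cell cannot be told apart.

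Over both shRNAs, the log2 changes were -0.10 for U2AF1 (SE 0.16, 95% interval -0.49 to 0.28), -0.07 for U2AF2 (SE 0.19, -0.51 to 0.38), 0.08 for U2AF1L4 (SE 0.16, -0.30 to 0.47), -0.09 for SF1 (SE 0.12, -0.37 to 0.19) and -0.04 for PUF60 (SE 0.12, -0.32 to 0.24). The smallest edgeR adjusted p of the 5 was 0.85. As linear ratios of knockdown to control, the intervals ran from 0.701 to 1.30 for U2AF2, the widest downward, and from 0.776 to 1.14 for SF1. Over all genes, edgeR called 0% of 18130 genes at an adjusted p of 0.05 over both shRNAs, with 8.26% at an unadjusted p below 0.05, while DESeq2 called 195 genes (1.08%). For sh1, sh2 and sh1 against sh2, DESeq2 called 0.767%, 1.1% and 0.419% of genes and edgeR 0%. None of the 5 genes was among the DESeq2 calls, where their smallest adjusted p over both shRNAs was 0.81. Without the sh2 library of experiment 1, the change of U2AF2 went from -0.07 to 0.03 and that of U2AF1 from -0.10 to -0.02.

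Retention, the second readout, is 100 times the boundary reads of an intron over its boundary reads plus 2 times its spliced reads. Pooled over the introns of a gene that do not overlap, it separated U2AF1L4 from the rest: 25.7% and 24.6% with Con_sh, 26.8% and 22.9% with sh1 and 30.2% and 27.8% with sh2. The 4 other genes lay between 0.870% and 2.13% in every library and overlapped each other. SF1 read 1.41% and 1.51% with Con_sh, 2.13% and 1.48% with sh1 and 1.90% and 1.91% with sh2. The log2 change, here and below that of the ratio of boundary to spliced reads, was 0.34 (SE 0.18, edgeR adjusted p = 0.97). PUF60 read 1.43% and 1.498% with Con_sh, 1.81% and 1.44% with sh1 and 1.84% and 1.97% with sh2, a log2 change of 0.26 (SE 0.17). The changes were 0.30 (SE 0.21) for U2AF1, 0.14 (SE 0.20) for U2AF2 and 0.13 (SE 0.21) for U2AF1L4. Without the sh1 library of experiment 1 they were 0.17 for U2AF1 and 0.21 for SF1. All 5 were above 0, as were 65.8% of 16450 genes tested, whose median was 0.13, and 0 of the 5 passed the test where 0.0304% of all genes did.

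Single introns gave the same count. All 57 had enough reads to be tested, at least 289 in every library, and 0 of 57 passed edgeR's quasi-likelihood test over both shRNAs, where 0.33% of 134078 introns were called higher and 0.0209% lower. Neither shRNA alone called a member (background 0.292% higher and 0.0104% lower for sh1, 0.266% and 0.0201% for sh2), nor did sh1 against sh2 (0.0246% and 0.0097%), and the smallest adjusted p in any of the 4 contrasts was 0.98. At an unadjusted p below 0.05, 1 of 57 introns remained over both shRNAs (background 4.44%). The log2 change over both shRNAs was above 0 in 48 of 57 introns, against 55.5% of all introns tested, with a median of 0.23 against 0.08. The 4 knockdown libraries lay above both controls in 8 of 57 introns (background 7.28%) and below both in 0 (background 4.11%). These were intron 5 of U2AF2, introns 3 and 9 of U2AF1L4, introns 3, 5 and 14 of SF1 and introns 6 and 7 of PUF60. Several introns share a boundary or an exon with a neighbour, so these 57 values are not independent. Where introns share an end, the boundary reads there are counted for each of them. The longer one is set against fewer spliced reads, which raises its retention, so that its value is not that of its interval alone.

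**Figure D2:**
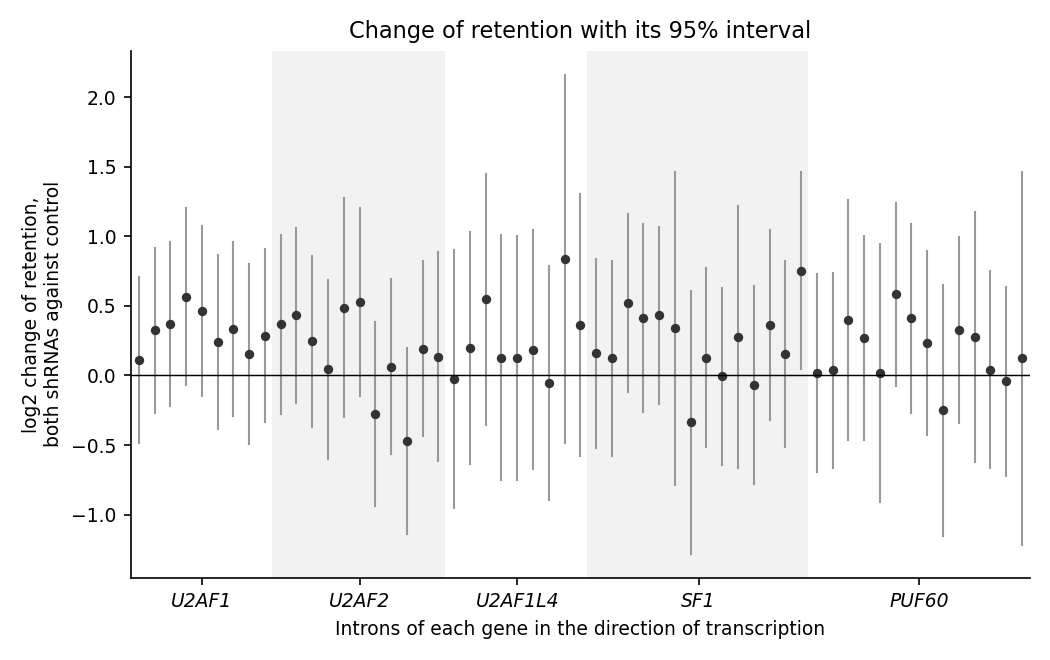
Log2 change of retention over both shRNAs against the control (points) with its 95% interval (bars) for the 57 introns, grouped by gene in the direction of transcription. The interval of 1 intron, the last of SF1, lies above 0. Of the 57 points 48 lie above 0, against 55.5% of all introns tested, and points of introns that share an end are not independent.

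In SF1, intron 14 (chr11:64766156-64766899, 744 nt) was that intron. Its retention was 0.889% and 0.625% with Con_sh, 2.08% and 1.06% with sh1 and 1.11% and 0.999% with sh2. All 4 knockdown libraries were above both controls, with 56 to 104 boundary reads each against 53 and 43, and the log2 change was 0.75 (SE 0.36, edgeR unadjusted p = 0.037, adjusted p = 1). The highest values in SF1 were those of introns 4 and 5, which end at the same 3′ splice site. Intron 4 (chr11:64770409-64776497) stood at 15.3% and 16.5% with Con_sh, 21.5% and 16.4% with sh1 and 23.2% and 19.8% with sh2. Intron 5 (chr11:64770409-64773429) stood at 8.36% and 8.94%, 13.7% and 9.19%, and 12.6% and 10.4%, in the same order. The 3′ ends of both carried 2393 boundary reads over all libraries, against 623 and 1050 at their 5′ ends. Intron 4 spans introns 3 and 5, and its 623 reads are also those of intron 3. It had 925 to 1269 spliced reads per library, against 1915 to 2866 for intron 5, so its higher value reflects fewer spliced reads. Intron 3 was at 3.34% to 5.75%. The log2 changes of introns 4 and 5 were 0.42 (SE 0.35) and 0.43 (SE 0.32), neither past the test. Elsewhere in SF1, introns 6, 7 and 10 were at or below 0.312% in every library.

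In U2AF2, the highest retention belonged to intron 8 (chr19:55668793-55669082, 290 nt), whose libraries were ordered by experiment. It read 10.2% and 6.86% with Con_sh, 12.5% and 6.06% with sh1 and 11.1% and 6.71% with sh2, the first value of each pair being experiment 1. Reads were even at its ends, with 1757 at the 5′ and 1683 at the 3′ boundary. The change over both shRNAs was 0.06 (SE 0.32), and -0.14 without the sh2 library of experiment 1. Intron 6 (chr19:55663745-55668506) had the smallest unadjusted p among the introns of U2AF2, 0.13 by edgeR, with 0.678% and 1.33% with Con_sh, 1.11% and 1.55% with sh1 and 1.24% and 1.74% with sh2. In that intron the order of the experiments was the other way round, with all 3 libraries of experiment 2 the highest.

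In U2AF1, intron 4 (chr21:43095744-43101365) had the smallest unadjusted p over both shRNAs. It measured 1.77% and 1.47% with Con_sh, 3.18% and 1.28% with sh1 and 4.202% and 1.77% with sh2. The libraries of experiment 1 carried 252 and 309 boundary reads under the knockdown and 164 with Con_sh, while those of experiment 2 carried 142, 162 and 169. The log2 change was 0.57 (SE 0.32, edgeR unadjusted p = 0.080), and 0.24 and 0.23 without the sh2 and the sh1 library of experiment 1. Intron 2 (chr21:43100520-43104314) had the highest mean retention of the gene, 2.49%, with 2.38% and 1.89% with Con_sh, 2.58% and 2.11% with sh1 and 3.18% and 2.81% with sh2. It spans introns 1 and 3 and has the boundary reads of their outer ends (488 and 1869). The mean of intron 3 was 2.42%. All 9 introns of U2AF1 had a change above 0, from 0.11 to 0.57, and in none did all knockdown libraries clear both controls.

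U2AF1L4 was retained along nearly its whole length. Of its 9 introns, 8 had a mean retention over 10%, against 2 of 14 in SF1 and none in U2AF1, U2AF2 and PUF60, where the highest means were 2.49%, 8.90% and 5.44%. Over all introns tested in the series the median was 1.48%. Intron 3 (chr19:35744422-35745124) was the highest of all 57, at 65.2% and 60.8% with Con_sh, 73.5% and 68.0% with sh1 and 75.3% and 68.1% with sh2. It rested on 65 to 103 spliced and 281 to 399 boundary reads per library, and its change of 0.55 (SE 0.46) did not pass the test. Its boundary reads are also those of its neighbours: 1231 at the 5′ end, as in intron 2, and 749 at the 3′ end, as in introns 5 and 6. Introns 2 and 6, with more spliced reads, had means of 44.3% and 31.3%. The value of intron 3 thus reflects its few spliced reads and is not the retention of its interval alone. The exception among the 9 introns was intron 8 (chr19:35743905-35744011), which read 0.158% and 1.14% with Con_sh, 2.89% and 1.08% with sh1 and 0.525% and 1.16% with sh2. With 1 to 23 boundary reads per library, its change of 0.84 had an interval from -0.48 to 2.16. It was 0.14 without the control library of experiment 1 and 2.85 without that of experiment 2. The SE of the log2 change was 0.42 to 0.67 over the introns of this gene, against 0.30 to 0.33 in U2AF1, which had more reads.

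In PUF60, the highest values belonged to intron 7 (chr8:143818535-143821596), with 4.13% and 4.83% with Con_sh, 7.23% and 4.88% with sh1 and 6.36% and 5.23% with sh2. Intron 6 (chr8:143820717-143821596), which shares its 5′ end, had the smallest unadjusted p of the gene, 0.083 by edgeR. It read 2.47% and 3.10%, 4.95% and 3.42%, and 4.04% and 4.12%, in the same order, a log2 change of 0.58 (SE 0.34). In both introns all 4 knockdown libraries were above both controls. Intron 7 spans introns 6 and 8 and has the boundary reads of their outer ends (746 and 432), over fewer spliced reads than either. Retention summed from both boundaries can hide unequal ends: intron 12 of PUF60 (chr8:143817467-143817591) had 409 boundary reads at its 3′ end and 7 at its 5′ end, and only 54.8% of its bases were covered on average.

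**Figure D3:**
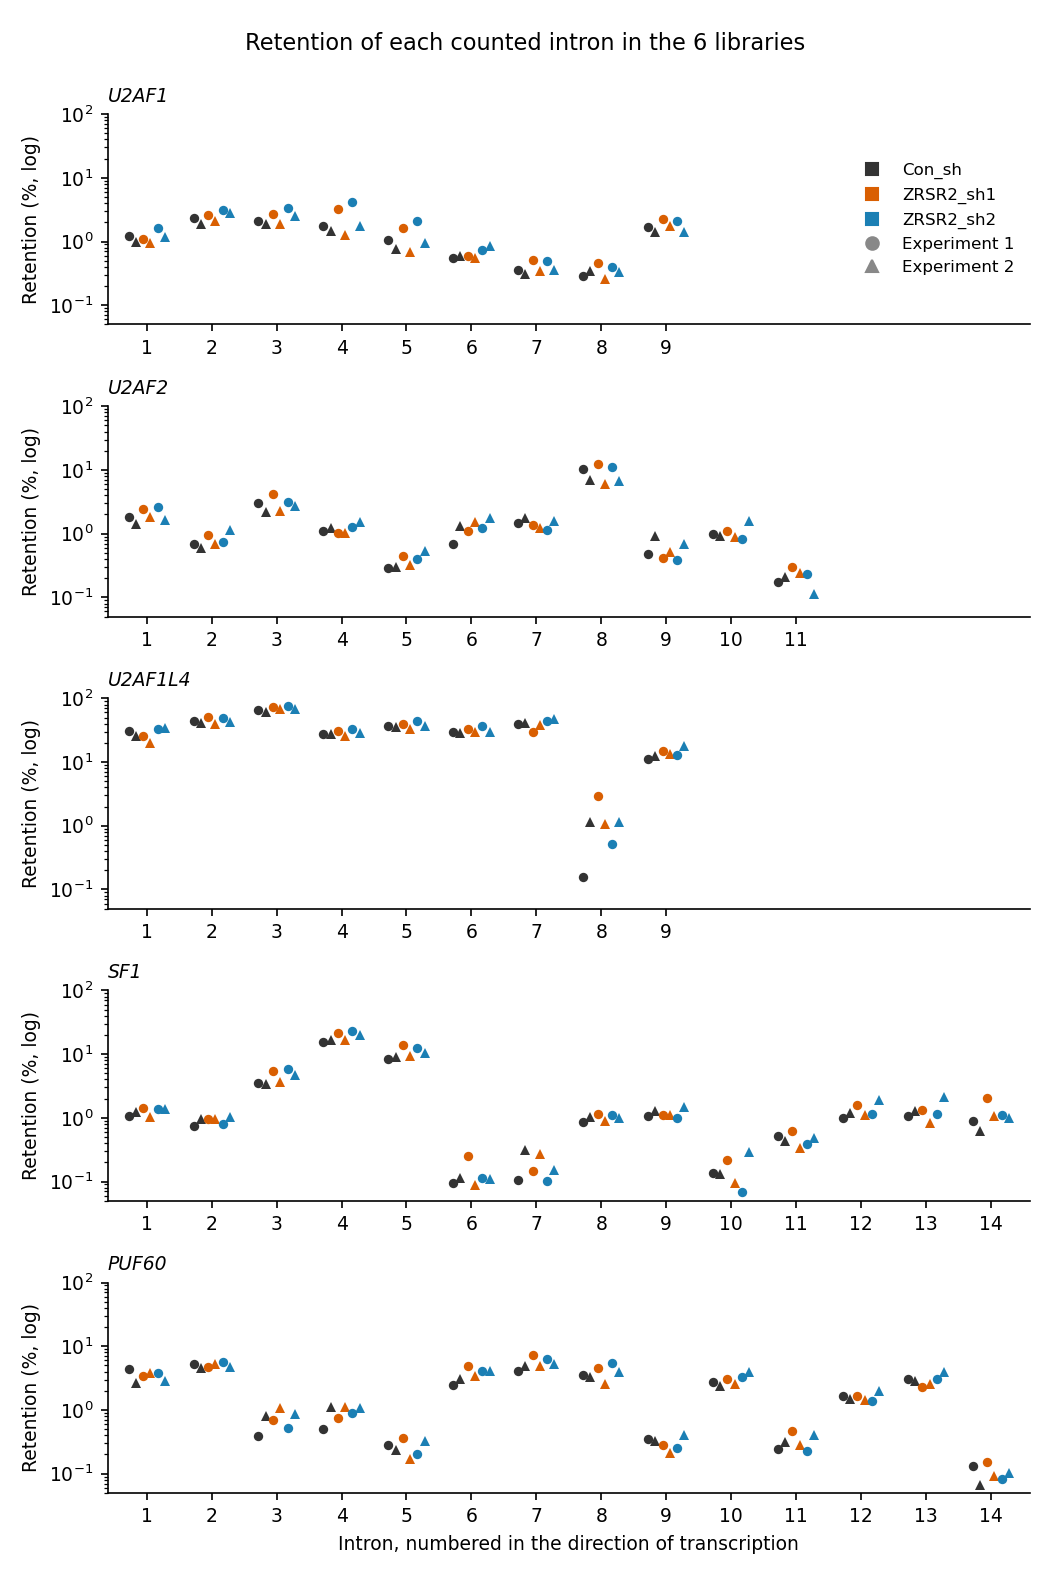
Retention of each listed intron (percent, log axis) in the 6 libraries, 1 panel per gene, with introns in the direction of transcription, colour for the shRNA and shape for the experiment. U2AF1L4 lies above 10% in all introns but its eighth, and in the eighth intron of U2AF2 the circles of experiment 1 lie above the triangles of experiment 2.

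All 3 libraries of experiment 1 lay above all 3 of experiment 2 in 6 of 57 introns (background 8.67%) and below them in 5 (background 4.79%). Experiment 2 was compared with experiment 1 in a fit that also held the shRNA, a comparison added after the data had been seen. It called 3 of 57 introns, against 0.671% of all introns tested (0.0686% higher and 0.603% lower in experiment 2). The 3 were U2AF1 intron 4 (log2 change -0.97, SE 0.23, edgeR adjusted p = 0.011), U2AF1 intron 5 (-0.98, SE 0.23, adjusted p = 0.0086) and U2AF2 intron 8 (-0.85, SE 0.22, adjusted p = 0.030). U2AF1 intron 5 (chr21:43095744-43100452) shares its 3′ end with intron 4, and read 1.06% and 0.761% with Con_sh, 1.64% and 0.678% with sh1 and 2.11% and 0.963% with sh2. The 555 boundary reads at that end are counted for both introns, so their 2 calls are not independent. In intron 4 the libraries of both experiments overlapped. Leaving out any 1 of the 4 knockdown libraries ended all 3 calls, and the count over all introns fell from 900 to 38 and 42 without the sh2 library of experiment 1 and of experiment 2, and to between 525 and 574 without any 1 of the others. Taking double the smaller boundary count of each intron, in place of the sum, left no call among the members and 0 over all introns.

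Gene levels of both U2AF subunits were ordered by experiment too. U2AF1 and U2AF2 were lower in all 3 libraries of experiment 1 than in all 3 of experiment 2, a pattern found in 11.1% of all genes. The log2 difference was 0.25 (SE 0.11, edgeR adjusted p = 0.28) for U2AF1 and 0.34 (SE 0.11, adjusted p = 0.17) for U2AF2, so neither passed the test, where 0.16% of genes did. SF1, PUF60 and U2AF1L4 differed by 0.02, 0.05 and 0.02 between the experiments. The labels do not say how the experiments differed, and the erythroid marker sum given above was higher in experiment 1 under both shRNAs but lower with Con_sh. Its part in these differences was not tested.

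Splice site choice was read from pairs of listed introns that share 1 splice site, as the spliced reads of the longer intron in percent of those of the shorter one. This share is not the share of transcripts that skip an exon. Across 37536 such pairs in the series the longer intron never had more reads than the shorter one, and how reads were assigned to nested introns is not stated. U2AF2 intron 11 lies inside intron 10 without sharing an end. Their spliced counts were 4872 and 4871 in the sh2 library of experiment 1 and equal in every other library. The count of an inner intron can therefore hold the reads of a longer one. The share also fell with the length of the exon in between: its 25th percentile was 96.6% for exons of 1 to 30 nt, 67.4% for 51 to 60 nt and 49.9% for 71 to 80 nt. For the comparison with exons of like length, reads were pooled over the 6 libraries and the outer intron was set against whichever flanking inner intron had fewer reads, in all genes alike. Changes are tested as the log2 ratio of the longer intron's reads to the remaining reads of the shorter one.

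**Figure D4:**
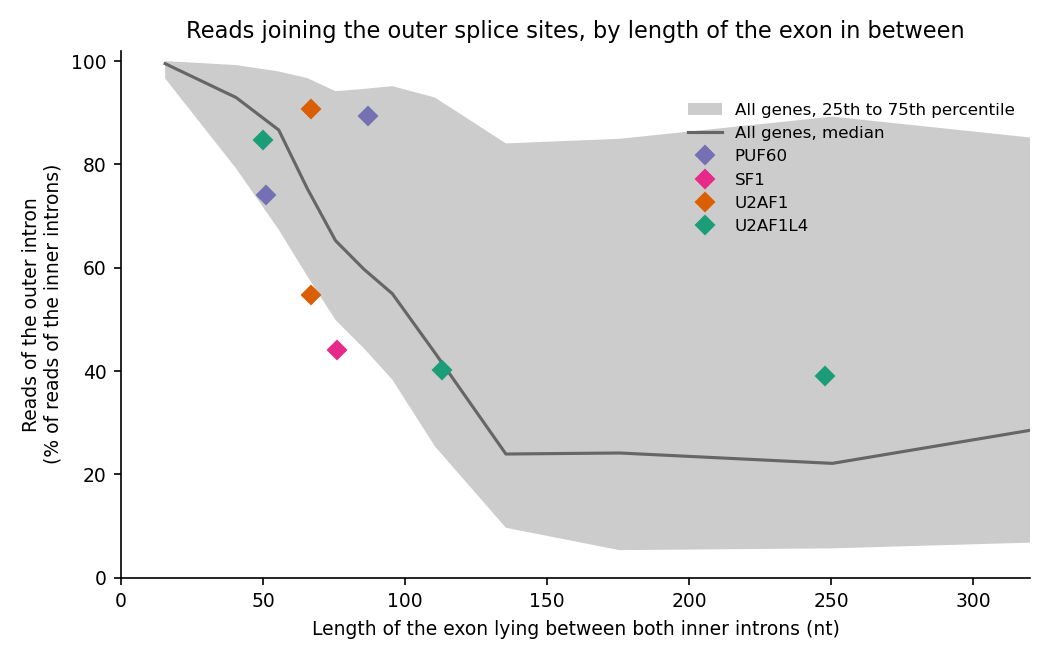
Spliced reads of the outer intron in percent of those of the inner introns, against the length of the exon in between (nt), for all genes (line, median; band, 25th to 75th percentile) and for the exons of 4 of the genes (diamonds), each from reads pooled over the 6 libraries and against the inner intron with fewer reads. The band falls with length over short exons, and both U2AF1 exons, of equal length, lie far apart.

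U2AF1 has a pair of adjacent exons of 67 nt, known as mutually exclusive and giving different forms of the protein. They lie at chr21:43101366-43101432 (upstream) and chr21:43100453-43100519 (downstream). For the upstream exon the pooled share of intron 2 in intron 3 was 90.7%, above the median of 75.4% of exons of 61 to 70 nt, while for the downstream exon that of intron 4 in intron 5 was 54.7%, below their 25th percentile of 58.4%. Control and knockdown libraries overlapped at both exons. Set against intron 1, the other inner intron of the upstream exon, the shares of intron 2 were 86.7% and 89.9% with Con_sh, 89.9% and 89.9% with sh1 and 88.9% and 90.2% with sh2. The log2 change was 0.20 (SE 0.17, 95% interval -0.21 to 0.61), and turned to -0.03 without the control library of experiment 1. For intron 4 over intron 5, which skips the downstream exon, the shares were 56.9% and 55.0%, 53.7% and 55.9%, and 53.4% and 52.6%, in the same order, a log2 change of -0.12 (SE 0.13, -0.43 to 0.20).

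In U2AF1L4 the share of the longest nested intron was lower in every knockdown library than in both controls, and the change did not pass the test. Intron 3 joins the 5′ splice site of intron 2 to the 3′ splice site of introns 5 and 6, leaving out what lies between. It had 75 and 103 reads with Con_sh, 72 and 70 with sh1 and 65 and 67 with sh2, against 167 and 224, 193 and 198, and 187 and 188 reads of intron 2 (chr19:35744739-35745124). Its share of intron 2 was 44.9% and 46.0% with Con_sh, 37.3% and 35.4% with sh1 and 34.8% and 35.6% with sh2. The log2 change was -0.58 (SE 0.23, 95% interval -1.13 to -0.03, edgeR unadjusted p = 0.041, adjusted p = 0.81), and -0.57 without the sh2 library of experiment 1. Set against intron 6, the share was 37.3% and 39.6%, 31.3% and 26.1%, and 29.8% and 30.3%, and set against intron 5 it was 46.3% and 46.8%, 40.0% and 32.1%, and 39.4% and 37.2%. These 3 pairs have the same outer reads, on which the retention of intron 3 also rests, and are 1 observation. They were the only ones of 17 pairs in the 5 genes where all knockdown libraries lay on 1 side of both controls, below in 3 (background 9.24%) and above in 0 (5.06%). Over 16242 pairs in the series edgeR called 0% over both shRNAs, with 6.15% at an unadjusted p below 0.05.

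**Figure D5:**
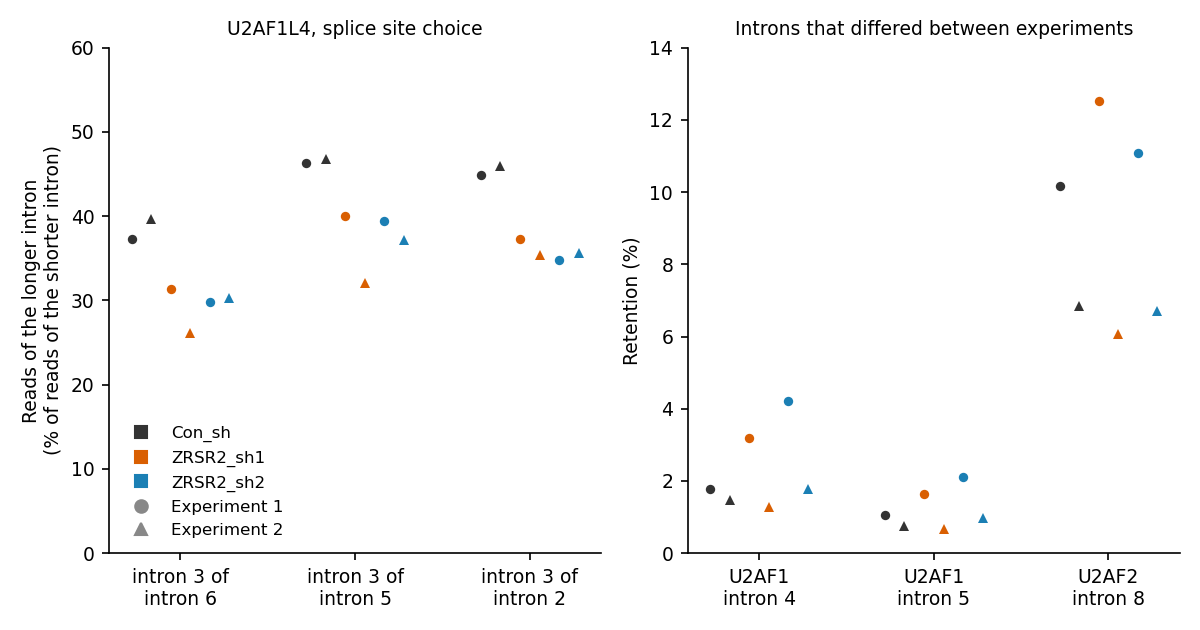
Left, reads of U2AF1L4 intron 3 in percent of those of introns 6, 5 and 2, per library; the 4 knockdown libraries lie below both controls in each. Right, retention (percent) of the 3 introns of U2AF1 and U2AF2 called between the experiments; in U2AF2 intron 8 the circles (experiment 1) lie between 10.2% and 12.5% and the triangles between 6.06% and 6.86%.

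In SF1 and PUF60, control and knockdown libraries overlapped in every pair. SF1 holds an exon of 76 nt (chr11:64773430-64773505) between introns 3 and 5, with an outer share of 44.1%, below the 25th percentile of 49.9% for exons of 71 to 80 nt. The share of intron 4 in intron 3 was 33.3% and 34.3% with Con_sh, 37.0% and 35.6% with sh1 and 32.8% and 35.6% with sh2. Near its start, SF1 intron 1 made up 99.2% to 99.8% of the reads of intron 2, which begins at a later 5′ splice site. Its log2 change was -0.33 (edgeR unadjusted p = 0.46), and 0.28 without the control library of experiment 1. PUF60 holds an exon of 51 nt (chr8:143820666-143820716) with an outer share of 74.0% and one of 87 nt (chr8:143824313-143824399) with 89.4%. The second value depends on the inner intron: it is the share of intron 2 in intron 1, above the median of 59.7% of its length class. The share of intron 2 in intron 4, the inner intron with more reads, was 48.3% to 56.3% over the libraries. That share cannot be set against the median, which was taken with the inner intron of fewer reads. Per library, intron 2 made up 89.4% and 90.98% of the reads of intron 1 with Con_sh, 89.3% and 88.6% with sh1 and 89.5% and 88.1% with sh2, a log2 change of -0.20 (edgeR unadjusted p = 0.29, the smallest of the gene).

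Partners of these proteins were described from 2 lists. The first held 25 genes of the U2 particle and its helpers at the branch point, of which 24 were tested for expression. None passed the test, 9 were above and 15 below 0, and the median log2 change was -0.03, against -0.003 over all genes. The highest changes were those of HTATSF1, which binds the U2 particle (0.17, SE 0.16), and SF3B1, which holds the branch point (0.15, SE 0.13), and the lowest those of PHF5A, its neighbour in the particle (-0.52, SE 0.18), and SF3A2 (-0.23, SE 0.16). PHF5A read 49.7 and 46.7 CPM with Con_sh, 25.5 and 35.3 with sh1 and 33.2 and 41.5 with sh2. All its knockdown libraries were below both controls, as in 2 of the 24 tested genes of this list and 9.01% of all genes. Its edgeR adjusted p was 0.58 and its DESeq2 adjusted p was 0.23. Among 318 introns of this list tested, 0 were called higher and 1 lower over both shRNAs. That intron belongs to DDX39B, a helicase that acts with U2AF2 (chr6:31538856-31539146).

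The DDX39B intron separated the shRNAs. It was retained at 3.23% and 3.43% with Con_sh, 0.622% and 0.576% with sh1 and 3.18% and 2.38% with sh2. The sh1 change was -2.51 (SE 0.40, edgeR adjusted p = 3.2e-07), the sh2 change -0.28 (SE 0.38, adjusted p = 1), and sh1 against sh2 differed by -2.23 (SE 0.40, adjusted p = 0.00025). The call over both shRNAs (-1.40, adjusted p = 0.010) thus averages a change past the test and one that was not. It was lost without either control library, without the sh1 library of experiment 1 and without the sh2 library of experiment 2 (adjusted p over the 6 fits 0.014 to 0.42), and when the smaller boundary count was doubled (0.40). The difference between the shRNAs was lost without the sh2 library of experiment 1 (-2.01, adjusted p = 0.11) and when the smaller boundary count was doubled (0.73). In U2SURP, another U2-associated protein, 1 intron (chr3:143020037-143020598) passed for sh2 alone (edgeR adjusted p = 0.039). It had no boundary read in either control, which allows up to 0.102% and 0.0897% retention (3 counts, for counting error only), and was at 0.0822% and 0.109% with sh1 and 0.209% and 0.201% with sh2, from 2 to 7 boundary reads. That call was lost without either control library and without either sh2 library, with adjusted p of 0.15 to 0.72, and at 50 or more reads per intron (0.082).

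The second list held 16 relatives of U2AF and proteins that modulate 3′ splice sites, ZRSR2 among them. Apart from ZRSR2, 14 were tested for expression, 0 passed, 10 were above and 4 below 0, and the median was 0.07. The highest changes were those of PTBP2, a polypyrimidine tract repressor (0.48, SE 0.22), and MBNL1, a splicing regulator (0.43, SE 0.26), and the lowest after ZRSR2 was UHMK1, a kinase that phosphorylates SF1 (-0.24, SE 0.15). PTBP2 read 11.03 and 13.3 CPM with Con_sh, 15.6 and 14.3 with sh1 and 22.9 and 15.7 with sh2. All its knockdown libraries were above both controls, a pattern found in 10.4% of all genes, and its edgeR adjusted p was 0.60. Its highest value was that of the sh2 library of experiment 1, and its change ranged from 0.32 to 0.62 over fits without 1 library. The change of MBNL1 was 0.12 and 0.81 without the control library of experiment 1 and of experiment 2, and that of UHMK1 was -0.097 and -0.38. None of the 193 introns tested in this list was called over both shRNAs.

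Genes whose log2(CPM + 1) followed each of the 5 most closely over the 6 libraries, among 8436 genes of at least 10 CPM, were listed as a description. The copy LOC102724594 came first for U2AF1 (Pearson r = 0.9996), followed by CCDC86 (0.998). For U2AF2 these were AHSA1 (0.993) and GRPEL1 (0.993), for SF1 SPEG (0.996) and GAD1 (0.992), for PUF60 CTNNAL1 (0.993) and DCXR (0.991), and for U2AF1L4 SPAG5 (0.968) and ACBD5 (0.964). The 6 libraries share 3 groups and 2 experiments, and the values are the highest of 8436.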

How the data were processed

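PolyA-selected RNA of 6 K562 libraries was measured. The authors deposited 1 table per library with, for each of 241593 introns, raw counts of reads at both boundaries and of spliced reads, the covered fraction of the intron, and a retention value in percent, per the file headers. The aligner and the counting program are not stated there. The submitters' processing notes list hg19, but the positions fall inside genes as RefSeq places them on GRCh38.p14, which was used to name 228510 introns (94.6%). The deposited percent equals 100 times boundary reads over boundary reads plus 2 times spliced reads.

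Gene expression was the sum of spliced counts over introns of a gene that do not overlap, tested with edgeR 4.0.16 (R 4.3.3, TMM scaling, quasi-likelihood F test, Benjamini-Hochberg adjustment at 0.05) over all 18130 genes left by its filter on low counts, all groups sharing 1 estimate of the spread with 3 residual degrees of freedom. Retention was tested in the same tool on boundary against spliced counts per library, over 134078 introns with a mean of at least 20 reads and over 16450 genes, and splice site choice on outer against remaining inner reads. DESeq2 1.42.0 was an alternative for expression. The fits of intron retention and of gene expression over both shRNAs were also run on simulated counts. These had a fixed spread and no difference between experiments, so they do not show what the fits could detect in these libraries.

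Members and lists were chosen with earlier results of these data known, and 1 marker of the erythroid list is not reported here. Named introns were those passing a test, those with the smallest p and those with the highest retention of each gene. In the lists, genes passing a test and the 2 highest and 2 lowest changes were named.

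The labels number the libraries by experiment. Deviations from group means correlated between libraries of the same experiment at 0.285, 0.321 and 0.476 for expression and at 0.0712, 0.134 and 0.136 for retention, so that all pairs passed 0.1 for expression and 1 pair did not for retention.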

Additional observations from a re-analysis of the deposited data

How the results depend on the processing

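None of the 5 genes or 57 introns passed a test of the knockdown under any alternative run: other read minimums, the smaller boundary count doubled, only introns covered to at least 0.95, DESeq2, other size factors, no filter on low counts, other summed introns, repeated introns left out, the experiment number as a replicate block, and each library left out. Repeated introns were sought within 500 kb only, and 0 of the 57 introns were among them. That run therefore did not address the copy of U2AF1, which lies further away. Of the counts of called members under alternatives, 171 kept their value within 1.5 times, and the 5 that did not were those of the comparison between experiments, where the count went from 3 to 0 with the smaller boundary count doubled and ranged from 0 to 2 over the fits without 1 library. Over fits without 1 library, some directions turned: retention of U2AF2 intron 8 ranged from -0.25 to 0.37, expression of U2AF2 from -0.21 to 0.076 and of U2AF1L4 from -0.038 to 0.21, pooled retention of U2AF2 from -0.013 to 0.30, and the outer share of SF1 intron 1 from -1.43 to 0.28 and of U2AF1 intron 2 from -0.032 to 0.43 (log2). Others kept their sign but moved by over 1.5 times, among them these: pooled retention of U2AF1 ranged from 0.17 to 0.44, of SF1 from 0.21 to 0.47 and of U2AF1L4 from 0.053 to 0.20, retention of U2AF1 intron 2 from 0.16 to 0.49, of U2AF1 intron 4 from 0.23 to 0.90, of U2AF2 intron 6 from 0.077 to 1.06 and of SF1 intron 14 from 0.498 to 1.01, expression of HTATSF1 from 0.052 to 0.28 and of SF3B1 from 0.088 to 0.22. The cause was not tested.

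The replicate block changed no call among the members. Over all introns it raised the calls over both shRNAs from 471 to 666, those of sh2 from 384 to 594 and those of sh1 against sh2 from 46 to 116. Over pooled genes it raised the calls over both shRNAs from 5 to 132, and those of sh1 and sh2 from 3 and 2 to 80 and 75. In splice site choice it gave 6, 6 and 2 calls, in the same order, where there were 0.

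Counts over all features moved further with other settings. With the smaller boundary count doubled, 79 introns were called over both shRNAs, 65 for sh1, 39 for sh2 and 0 for sh1 against sh2. Among well covered introns the counts were 212, 161, 48 and 0. Without 1 library they ranged from 269 to 589, 133 to 502, 120 to 437 and 24 to 49. With at least 50 reads, 10 introns were called for sh1 against sh2 and 541 between experiments. Pooled genes called ranged from 0 to 133 over both shRNAs without 1 library, and numbered 40 with the smaller boundary count doubled (8 for sh1, 9 for sh2). In expression, DESeq2 called 195, 139, 200 and 76 genes where edgeR called 0, and between experiments edgeR called 145 genes with no filter against 29, and 0 to 278 without 1 library. With 2 libraries a group, the intervals given with the expression of the 5 genes describe the uncertainty of each change. They do not show what the adjusted test could detect. The log2 change of ZRSR2 over both shRNAs was -1.20, and its edgeR adjusted p was 0.515. In that contrast edgeR called 0 of 18130 genes.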
